A study of Mus musculus with 6 samples.

Results

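The complement system was examined through 33 genes in mouse liver RNA. The genes were chosen by name: 3 chains of C1q, 2 receptors for complement fragments, 2 other proteins made by macrophages, 19 components and inhibitors made mainly by hepatocytes, 4 secreted proteins of other or mixed source and 3 membrane regulators. Each name matched 1 Ensembl gene among the 54682 rows of the count table, and all 33 passed the filter on low counts that left 14145 genes to test. Poly(A) RNA was sequenced from the livers of 3 wild-type mice and 3 mice homozygous for the targeted allele Cd44tm1Hbg (strain B6.Cg-Cd44tm1Hbg/J), 1 library per mouse. Mice of both genotypes fed freely on the Lieber-DeCarli ethanol diet, 5% ethanol by volume, over 10 days. On day 11 each was given 5 g/kg ethanol by gavage, and livers were taken 9 hours later. The allele is constitutive, so it is not limited to 1 cell type, and no mouse without ethanol was analysed here. The sources used here give neither age nor sex, nor the origin of the wild-type mice. The comparison asks how complement transcripts of the ethanol-exposed liver differed between the genotypes.

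Complement is a cascade of plasma proteases and binding proteins that coats microbes and dying cells, calls in leukocytes and opens pores in membranes. It starts from C1q bound to antibody (classical pathway), from collectins or ficolins bound to sugars (lectin pathway) or from spontaneous turnover of C3 (alternative pathway). These routes cleave C3 and then C5, and C5b gathers C6, C7, C8 and C9 into the membrane attack complex. The liver supplies most of the plasma proteins from hepatocytes, whereas C1q and properdin come from macrophages and other myeloid cells. CD44, the product of the deleted gene, is a hyaluronan receptor on leukocytes and other cells.

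Total counts were 15493009 to 19346623 per library, and levels are given as CPM, counts per 1e6 counts after TMM scaling, which evens out differences in RNA composition. The albumin gene Alb, which defines hepatocytes, was at 63781 to 88399 CPM. Cd44 had 590, 175 and 568 counts in wild-type 1, 2 and 3, and 1, 0 and 0 counts in knockout 1, 2 and 3, so each library went with its genotype label. Wild-type 2 stood apart from the other wild-type mice, with the lowest Cd44 count of the 3. The summed level of 12 Kupffer cell markers was 552 CPM in that liver, against 1157 and 896 CPM in wild-type 1 and 3 and 438 to 486 CPM in the knockout livers. The same library had the highest sums of B cell markers (13.5 CPM, against 1.92 to 9.25 CPM in the others) and of pancreatic acinar markers (3.26 CPM, against 0.199 to 1.75 CPM). For each complement gene described here whose edgeR call changed without wild-type 2, the value without it is also given; the library was singled out after its values were seen.

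The promoter windows of 6 genes set macrophage-made and hepatocyte-made genes side by side. Each runs from 250 bases before to 50 bases after a RefSeq start (GRCm38.p6) and reads 5′ to 3′ on the gene's strand. Capitals mark GAGGAA, a purine-rich core read by PU.1 and other ETS factors, and GTTAAT, a core of sites for the hepatocyte factor HNF1, on either strand. The windows are C1qb (chr4:136886151-136886450, minus strand), C1qc (chr4:136892865-136893164, minus), Cfp (chrX:20931506-20931805, minus), Fcna (chr2:25627925-25628224, minus), C8b (chr4:104766067-104766366, plus) and C4bp (chr1:130661569-130661868, minus).
C1qb: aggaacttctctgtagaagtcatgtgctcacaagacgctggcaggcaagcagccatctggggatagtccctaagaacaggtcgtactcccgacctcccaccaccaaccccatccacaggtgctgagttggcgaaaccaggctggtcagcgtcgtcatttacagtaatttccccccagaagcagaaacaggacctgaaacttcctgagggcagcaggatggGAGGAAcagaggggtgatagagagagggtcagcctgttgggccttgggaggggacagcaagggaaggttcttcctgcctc
C1qc: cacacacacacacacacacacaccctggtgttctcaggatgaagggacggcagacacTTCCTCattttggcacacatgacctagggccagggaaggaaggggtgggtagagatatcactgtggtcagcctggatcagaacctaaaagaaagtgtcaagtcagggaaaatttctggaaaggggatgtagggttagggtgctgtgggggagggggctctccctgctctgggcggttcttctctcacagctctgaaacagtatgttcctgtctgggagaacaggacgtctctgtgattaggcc
Cfp: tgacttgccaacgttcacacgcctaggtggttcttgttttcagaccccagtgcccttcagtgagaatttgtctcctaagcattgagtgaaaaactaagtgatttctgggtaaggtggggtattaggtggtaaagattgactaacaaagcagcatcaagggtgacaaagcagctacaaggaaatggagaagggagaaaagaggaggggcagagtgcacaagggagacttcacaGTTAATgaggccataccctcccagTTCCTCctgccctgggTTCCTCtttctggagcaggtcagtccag
Fcna: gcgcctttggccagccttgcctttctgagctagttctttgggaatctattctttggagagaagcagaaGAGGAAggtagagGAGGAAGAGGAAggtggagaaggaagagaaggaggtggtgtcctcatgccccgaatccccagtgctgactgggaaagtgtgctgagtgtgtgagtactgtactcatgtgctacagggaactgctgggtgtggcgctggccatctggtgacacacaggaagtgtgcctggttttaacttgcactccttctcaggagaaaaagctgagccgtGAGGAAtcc
C8b: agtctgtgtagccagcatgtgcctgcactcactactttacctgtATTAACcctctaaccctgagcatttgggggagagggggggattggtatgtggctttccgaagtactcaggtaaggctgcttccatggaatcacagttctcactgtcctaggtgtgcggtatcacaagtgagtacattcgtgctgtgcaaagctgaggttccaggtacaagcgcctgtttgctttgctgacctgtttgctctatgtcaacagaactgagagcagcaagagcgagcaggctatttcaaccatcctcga
C4bp: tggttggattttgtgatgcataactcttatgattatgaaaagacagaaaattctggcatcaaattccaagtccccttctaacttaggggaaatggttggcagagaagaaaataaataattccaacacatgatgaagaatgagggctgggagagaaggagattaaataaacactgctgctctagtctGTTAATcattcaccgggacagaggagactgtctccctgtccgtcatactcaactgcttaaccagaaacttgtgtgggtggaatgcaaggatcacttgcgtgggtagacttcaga

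RefSeq windows were at hand for 24 of the 33 genes. GAGGAA was found in 4 of 6 macrophage-made genes (C1qb, C1qc, Cfp and Fcna), in 1 of 13 hepatocyte-made genes (C1ra) and in 28.3% of 27025 genes with such a window. GTTAAT was found in 6 of 13 hepatocyte-made genes (C1ra, C8a, C8b, Hc, C4bp and Vtn), in 1 of 6 macrophage-made genes (Cfp) and in 7.2% of all genes with a window. In all, 4 motifs were looked at, chosen with the expression results known, and the 2 longer ETS forms did not show the same pattern. GAGGAAGT was in 1 of 6 macrophage-made and 0 of 13 hepatocyte-made genes (3.28% of all genes), and TTTCCTC was in 0 of 6 and 0 of 13 (9.02% of all genes). The 6 printed genes were picked because they hold a marked motif, and a match is a run of letters, not a measured binding site.

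The 3 chains of C1q, the recognition molecule of the classical pathway, had lower means in the knockout livers, but wild-type 2 lay with the knockout mice. C1qa (ENSMUSG00000036887; GRCm38, chromosome 4, 136895917 to 136898803, minus strand) stood at 90.1, 45.7 and 98.9 CPM in wild-type 1, 2 and 3 and at 39.1, 47.2 and 42.9 CPM in knockout 1, 2 and 3. Wild-type 1 and 3 were high, and the genotypes overlapped because wild-type 2 lay below knockout 2. C1qb (chromosome 4, 136880129 to 136886187) was at 93.4, 41.7 and 103 CPM in wild-type and 41.8, 42.7 and 40.4 CPM in knockout livers. C1qc (chromosome 4, 136889804 to 136893065) was at 101, 41.2 and 104 CPM in wild-type and 38.2, 42.9 and 37.7 CPM in knockout livers. The 3 genes lie side by side on the same strand, and for each of them wild-type 2 fell below at least 1 knockout mouse. By edgeR's quasi-likelihood test, with Benjamini-Hochberg adjustment over all genes, the log2 fold change of knockout relative to wild-type was −0.86 ± 0.27 (standard error) for C1qa, with an adjusted p of 0.27. It was −0.93 ± 0.31 for C1qb (edgeR adjusted p = 0.29) and −1.05 ± 0.33 for C1qc (edgeR adjusted p = 0.273). None of the 3 passed 0.05, while DESeq2 placed C1qc just past it (adjusted p = 0.0467). Without wild-type 2 the fold changes were −1.12, −1.23 and −1.36, with edgeR adjusted p of 0.0188, 0.012 and 0.0107.

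**Figure D1:**
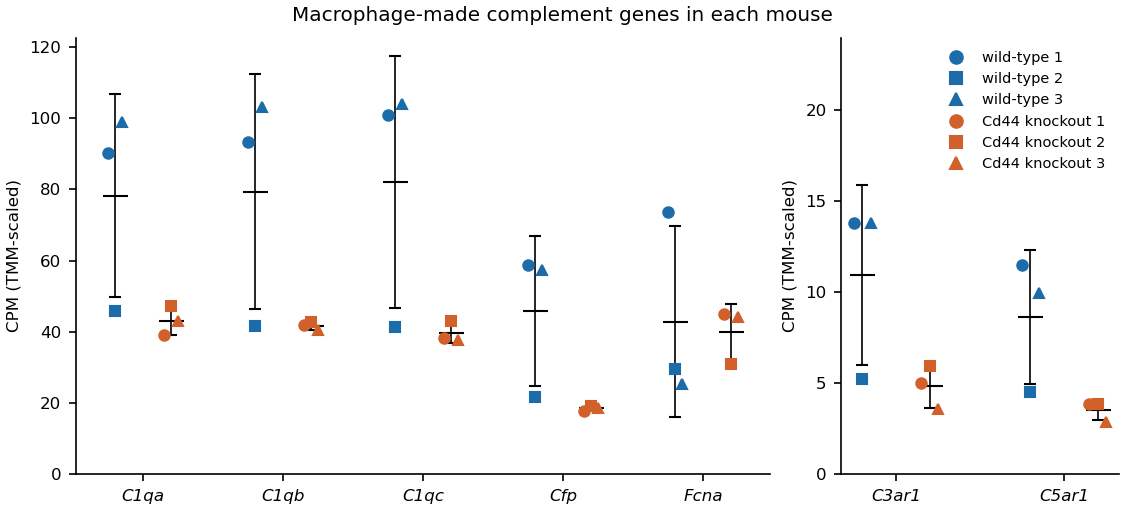
Level of 7 macrophage-made complement genes in CPM (vertical axes, from 0), 1 symbol per mouse; black bars are the mean and SD of 3 mice per genotype. For C1qa, C1qb, C1qc, Cfp, C3ar1 and C5ar1 wild-type 1 and 3 lie high and wild-type 2 lies near the knockout mice, whereas for Fcna wild-type 1 alone lies high, with 1357 counts.

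The chains kept similar proportions while their total differed. C1q counts summed to 5234, 1973 and 6012 in wild-type 1, 2 and 3 and to 1796, 2656 and 1768 in knockout 1, 2 and 3. Of these counts C1qa took 31.7% to 35.5%, C1qb 32.2% to 35.1% and C1qc 31.2% to 35.4% over the 6 livers. Per length of the union of exons, the level over all mice was 58.3 RPKM (CPM per kilobase) for C1qa, 55.6 RPKM for C1qb and 31.5 RPKM for C1qc. With the longest transcript as the length C1qc came to 50.6 RPKM, so its distance from the other chains depends on the gene model.

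C1q was then set beside other macrophage transcripts, since fewer macrophages and less C1q RNA per macrophage cannot be told apart in whole liver. The ratio of summed C1q to the 12 Kupffer cell markers was 0.246, 0.233 and 0.341 in wild-type 1, 2 and 3 and 0.251, 0.303 and 0.249 in knockout 1, 2 and 3, and the genotypes overlapped. Relative to Csf1r, the receptor for a macrophage growth factor, C1q stood at 2.74, 3.15 and 3.18 in wild-type and 2.99, 2.97 and 3.71 in knockout livers, which also overlapped. Relative to Adgre1, which encodes F4/80, it stood at 7.15, 11 and 10.9 in wild-type and 13.8, 12.2 and 16.2 in knockout livers. Relative to Cd68, a lysosomal macrophage protein, it stood at 8.99, 9.77 and 11.7 in wild-type and 12.1, 15.1 and 15.1 in knockout livers. The ratios to Adgre1 and Cd68 were higher in every knockout mouse than in every wild-type mouse. Relative to Clec4f, a Kupffer cell receptor, the ratio was 1.74, 1.83 and 2.17 in wild-type and 1.54, 1.71 and 1.38 in knockout livers, and here every knockout mouse was lower. The direction of the ratio thus changed with the marker chosen. All 12 Kupffer cell markers were lower on average in the knockout (median log2 fold change −1.30), as did all 11 tested monocyte and infiltrating macrophage markers (median −1.0), beside −0.01 for all genes. The monocyte list summed to 230 to 397 CPM in wild-type livers and 121 to 163 CPM in knockout livers, and of both lists S100a4 alone was at 0 in all libraries. The part of macrophage markers in the C1q values was not tested.

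**Figure D2:**
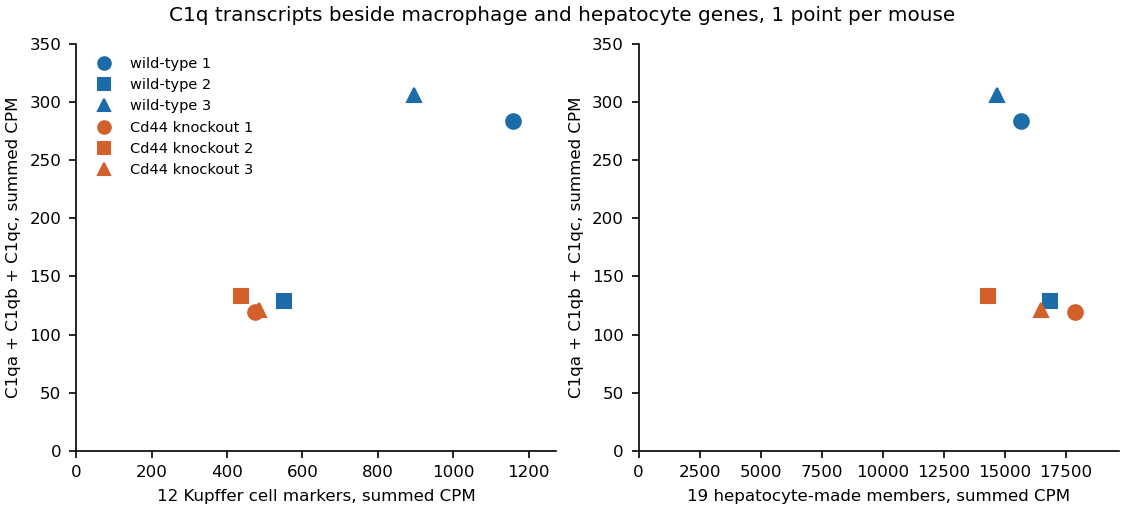
Summed CPM of C1qa, C1qb and C1qc (vertical axes) against the summed CPM of 12 Kupffer cell markers (left) and of the 19 hepatocyte-made complement genes (right), 1 point per mouse, all axes from 0. Wild-type 1 and 3 stand at 284 and 306 CPM of C1q, and wild-type 2 stands at 129 CPM among the knockout mice at 119 to 133 CPM.

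The receptors for the fragments C3a and C5a, which draw in and activate myeloid cells, had lower means in the knockout livers. C5ar1, the receptor for C5a (chromosome 7, 16246743 to 16259540), was at 11.5, 4.5 and 9.97 CPM in wild-type and 3.85, 3.85 and 2.88 CPM in knockout livers. Every knockout mouse was lower than every wild-type mouse, although wild-type 2 was close to them. The log2 fold change was −1.29 ± 0.35 (edgeR adjusted p = 0.227; DESeq2 adjusted p = 0.037). C3ar1, the receptor for C3a (chromosome 6, 122847138 to 122856161), was at 13.8, 5.21 and 13.8 CPM in wild-type and 5.04, 5.95 and 3.56 CPM in knockout livers. Here knockout 2 was above wild-type 2. Its log2 fold change was −1.17 ± 0.39 (edgeR adjusted p = 0.285), and DESeq2 gave an adjusted p of 0.0882. Without wild-type 2 the edgeR adjusted p was 0.0342 for C5ar1 (−1.59) and 0.0429 for C3ar1 (−1.49).

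The 2 other macrophage-made genes differed from each other. Cfp encodes properdin, the plasma protein that stabilises the C3 convertase of the alternative pathway (chromosome X, 20925454 to 20931555). It was at 58.7, 21.6 and 57.4 CPM in wild-type and 17.7, 19.2 and 18.5 CPM in knockout livers, without overlap, and the knockout mice were nearly level. Its log2 fold change was −1.32 ± 0.35 (edgeR adjusted p = 0.232; DESeq2 adjusted p = 0.0129), and −1.64 without wild-type 2 (edgeR adjusted p = 0.00654). Fcna encodes ficolin A, a lectin pathway recognition protein of tissue macrophages (chromosome 2, 25624666 to 25628030). It was at 73.7, 29.6 and 25.2 CPM in wild-type and 45, 30.9 and 44 CPM in knockout livers. Wild-type 3, which was high for C1q, was the lowest of all mice for Fcna, and the genotypes overlapped. The log2 fold change was −0.10 ± 0.41 (edgeR adjusted p = 0.95) and 0.54 without wild-type 1. Fcna and Cd44 share chromosome 2, 77.2 Mb apart.

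For C1q and the fragment receptors, all 5 genes were lower on average in the knockout (median log2 fold change −1.05, against −0.01 over all genes tested). Among the 19 hepatocyte-made genes 6 were lower and 13 higher on average. Their log2 fold changes had a median of 0.16 and ran from −0.69 to 0.36. The low end was C6 alone, and the others lay between −0.20 and 0.36. The summed level of the 19 genes was 15658, 16847 and 14666 CPM in wild-type and 17874, 14322 and 16486 CPM in knockout livers, and the genotypes overlapped. Summed C1q equalled 1.82%, 0.763% and 2.09% of that sum in wild-type 1, 2 and 3 and 0.666%, 0.928% and 0.734% in knockout 1, 2 and 3. Of the 19 genes, 0 had an unadjusted edgeR p under 0.05, where 7.59% of all genes tested were lower and 5.22% higher at that p. DESeq2 called 0 of the 19 after adjustment, beside 1.59% of all genes lower and 0.912% higher.

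**Figure D3:**
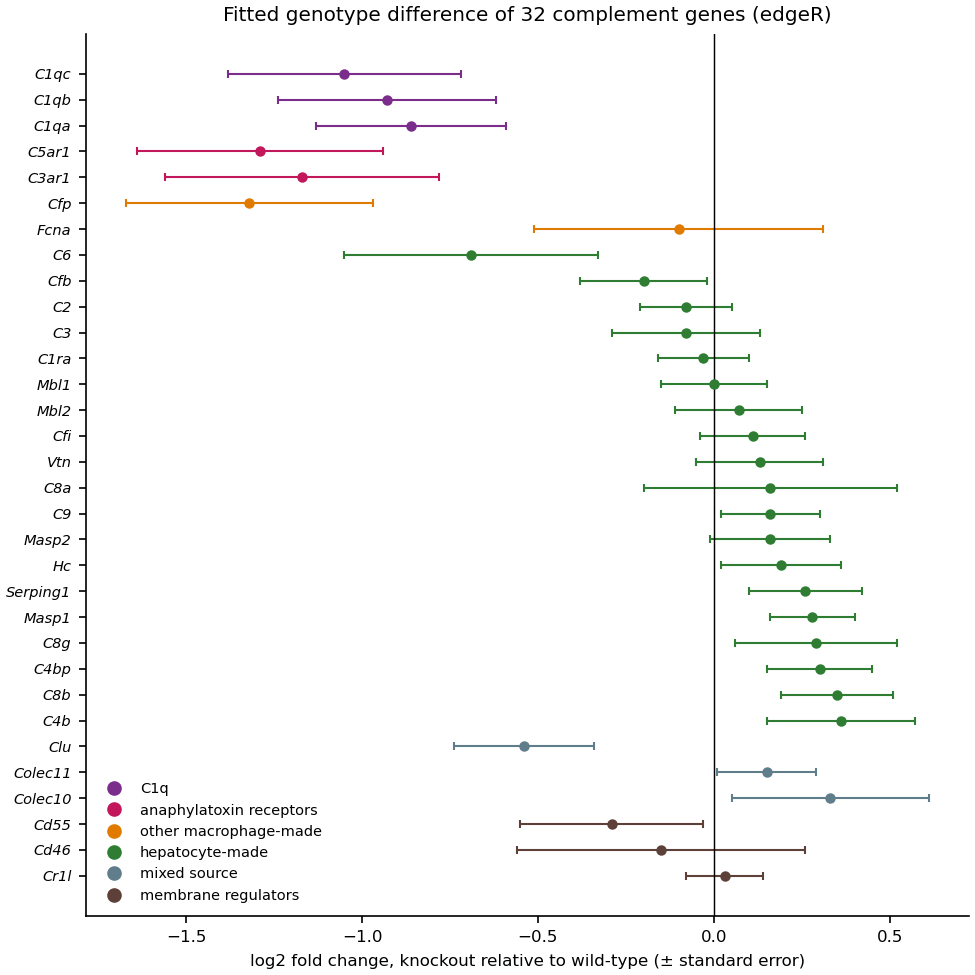
Fitted log2 fold change of knockout relative to wild-type with its standard error (horizontal axis) for 32 complement genes, coloured by group; Cfd, whose error is 2.21, is left out. The C1q, receptor and Cfp genes lie between −1.32 and −0.86, and the hepatocyte-made genes other than C6 lie between −0.20 and 0.36.

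C3, the protein on which the pathways converge, was the most abundant member. C3 (chromosome 17, 57203970 to 57228136) was at 9043, 9668 and 8886 CPM in wild-type and 9764, 7525 and 8761 CPM in knockout livers. The genotypes overlapped in this level (log2 fold change −0.08 ± 0.21, edgeR adjusted p = 0.916). C3 gave 57.8%, 57.4% and 60.6% of the summed level of the 19 genes in wild-type 1, 2 and 3. In knockout 1, 2 and 3 it gave 54.6%, 52.5% and 53.1%, each below every wild-type share, and the share was not tested. C4b, the C4 of the classical and lectin pathways (chromosome 17, 34728380 to 34743882), was at 1455, 1393 and 985 CPM in wild-type and 1886, 1454 and 1587 CPM in knockout livers. Wild-type 3 was the lowest mouse, and knockout 2 lay just below wild-type 1 (0.36 ± 0.21, edgeR adjusted p = 0.528). Its close copy C4a stood at 5.8 to 17.4 CPM, and reads that match both copies cannot be assigned with certainty. Per length, C3 was at 1739 RPKM over all mice and C4b at 256 RPKM.

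Of the 5 proteases and convertase subunits of the early steps, 4 overlapped between genotypes, all but Masp1. Over all genes tested, 9.42% lay lower in the knockout without overlap and 8.81% lay higher. C1ra, which cuts its partner within the C1 complex, averaged 207 ± 19.7 CPM (SD, n = 3) in wild-type livers and 204 ± 10.8 CPM in knockout livers (−0.03 ± 0.13). Masp1, the protease that starts the lectin pathway, was at 190, 180 and 168 CPM in wild-type and 229, 221 and 202 CPM in knockout livers. All knockout mice were above all wild-type mice for Masp1, by a small step (0.28 ± 0.12, edgeR adjusted p = 0.395). Masp2, which cuts C4 and C2, was at 121 to 178 CPM in wild-type livers and 142 to 181 CPM in knockout livers (0.16 ± 0.17). It shares 54.9% of its exon bases with Tardbp on the opposite strand, so without a strand-marking step reads of the pair cannot be told apart. C2 and Cfb, the catalytic subunits of the C3 convertases, had 26.4 to 33.5 and 7.1 to 10.2 CPM over the 6 livers, with log2 fold changes of −0.08 ± 0.13 and −0.20 ± 0.18. Their levels are uncertain, because a further gene model on the same strand, Gm20547, shares 42.8% of the exon bases of C2 and 79.5% of those of Cfb. Gm20547 has 0 exon bases outside those genes and is listed at 0 in every library, and the rule for reads in shared exons is not stated.

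The sugar-binding starters of the lectin pathway that hepatocytes make overlapped between the genotypes. Mbl1 and Mbl2, the mannose-binding lectins, ranged over 88.7 to 103 and 238 to 340 CPM in wild-type livers. In knockout livers they ranged over 83 to 113 and 261 to 346 CPM. The log2 fold changes were 0.00 ± 0.15 and 0.07 ± 0.18, smaller than their errors. Per length Mbl2 was at 266 RPKM and Mbl1 at 60.2 RPKM.

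The genes of the membrane attack complex were spread over a wide range of levels. Per length, over all mice, C8g was at 141 RPKM, Hc (the gene for C5) at 97.6, C8b at 40.3, C8a at 37.8, C9 at 37.6 and C6 at 3.99 RPKM. C7, not among the 33 genes, was at 0.608 RPKM, with 11 to 59 counts per library. C8a and C8b are neighbours on chromosome 4 whose products join that of C8g in the C8 complex. C8a was at 162, 96.7 and 131 CPM in wild-type and 220, 81.3 and 135 CPM in knockout livers (0.16 ± 0.36). Knockout 1 was the highest and knockout 2 the lowest of all mice for C8a, and its knockout SD, 48% of the mean, was the largest of the 19 genes. C8b was at 90.3, 86.6 and 93.6 CPM in wild-type and 135, 90 and 120 CPM in knockout livers, overlapping through knockout 2 alone (0.35 ± 0.16, edgeR adjusted p = 0.409). C6 was at 16, 8.93 and 27.5 CPM in wild-type and 11.1, 9.95 and 11.6 CPM in knockout livers. Wild-type 2 lay lowest and wild-type 3 highest for C6 (−0.69 ± 0.36, edgeR adjusted p = 0.49; −0.21 without wild-type 3). As for C1q, wild-type 1 and 3 were above every knockout mouse and wild-type 2 was not. The gene groups rest on known sources, and which cells made the C6 RNA was not tested. C8g, C9 and Hc had log2 fold changes of 0.29 ± 0.23, 0.16 ± 0.14 and 0.19 ± 0.17, and their genotypes overlapped. C8g and Hc lie 77.3 and 67.7 Mb from Cd44.

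**Figure D4:**
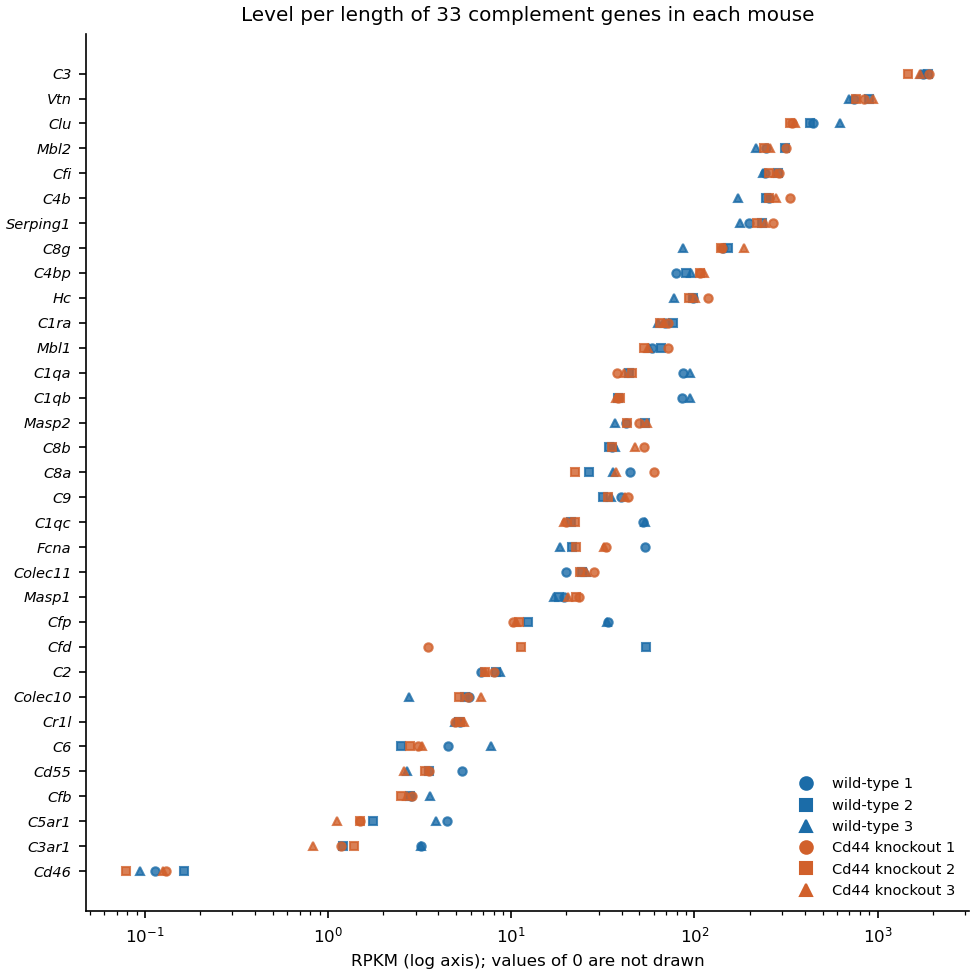
Level per length in RPKM (horizontal log axis) of the 33 complement genes, ordered by their mean over 6 mice, 1 symbol per mouse; values of 0 are not drawn. C3 is highest at 1739 RPKM and Cd46 lowest at 0.118 RPKM, and wild-type 1 and 3 stand to the right of the other mice for the C1q, Cfp, C3ar1 and C5ar1 genes.

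Inhibitors made by hepatocytes had higher means in the knockout livers, and none passed the test. Higher means were not particular to inhibitors: of all 19 hepatocyte-made genes 13 were higher and 6 lower on average. C4bp, which speeds the decay of the classical C3 convertase, was at 530, 606 and 645 CPM in wild-type and 717, 719 and 758 CPM in knockout livers. All knockout mice were above all wild-type mice (0.30 ± 0.15, edgeR adjusted p = 0.448; DESeq2 adjusted p = 0.29). Serping1, the C1 inhibitor, was at 464, 541 and 413 CPM in wild-type and 625, 511 and 567 CPM in knockout livers, and lies 18 Mb from Cd44. Knockout 2 lay below wild-type 2 (0.26 ± 0.16, edgeR adjusted p = 0.554). Cfi, the protease that inactivates C3b and C4b, was at 525 to 634 CPM in wild-type livers and 565 to 644 CPM in knockout livers (0.11 ± 0.15). Vtn, or vitronectin, which blocks insertion of the attack complex, was at 1410 to 1821 CPM in wild-type livers and 1555 to 1921 CPM in knockout livers (0.13 ± 0.18).

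Clusterin was the 1 secreted protein outside the macrophage group with an unadjusted p under 0.05. Clu, a chaperone that also binds the attack complex (chromosome 14, 65968483 to 65981547), was at 1533, 1463 and 2136 CPM in wild-type and 1174, 1146 and 1208 CPM in knockout livers. The genotypes did not overlap, and wild-type 3 was the highest. The log2 fold change was −0.54 ± 0.20 (edgeR adjusted p = 0.311; DESeq2 adjusted p = 0.0908), and −0.35 without wild-type 3. All 5 tested cholangiocyte markers of 6 also had lower means, beside 51.1% of all genes. Their sums were 51.8 to 65.1 CPM in wild-type livers and 27.5 to 36.3 CPM in knockout livers. Wild-type 2 had the highest of these sums but the lowest Clu of the wild-type mice. Lower means were also seen for all 12 Kupffer, all 11 tested monocyte and 8 of 10 stellate cell markers, but for 1 of 5 B cell markers. The part of these cell types in the Clu values was not tested. The cholangiocyte list holds Spp1, which is also in the monocyte list. Per length Clu came to 420 RPKM on the union of exons and 797 RPKM on the longest transcript.

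Cfd, which encodes the alternative pathway protease factor D and is a classic adipocyte product, had counts in 3 of 6 livers. The counts were 0, 773 and 0 in wild-type 1, 2 and 3 and 49, 208 and 0 in knockout 1, 2 and 3. The livers with counts, wild-type 2 and knockout 1 and 2, stood at 50.4, 3.25 and 10.4 CPM, and 0 counts allow up to 0.163, 0.153 and 0.205 CPM in wild-type 1, wild-type 3 and knockout 3, for counting error only. The presence of Cfd did not follow genotype (−1.83 ± 2.21, edgeR adjusted p = 0.808; 9.37 without wild-type 2). Adipoq, the adiponectin gene of adipocytes, stood at 13, 0.862 and 2.7 CPM in the same 3 libraries and at 0 counts in the other 3. Plin1, which coats adipocyte lipid droplets, stood at 12.6, 0.729 and 3.35 CPM in the same libraries and at most at 0.102 CPM elsewhere. The other adipocyte markers Fabp4 and Cidec were present in all 6 livers, at 7.33 to 56.1 and 27.4 to 84.1 CPM, and the sum of the list's 5 genes ran from 66.6 to 111 CPM. Whether adipose tissue was taken with these livers was not tested.

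**Figure D5:**
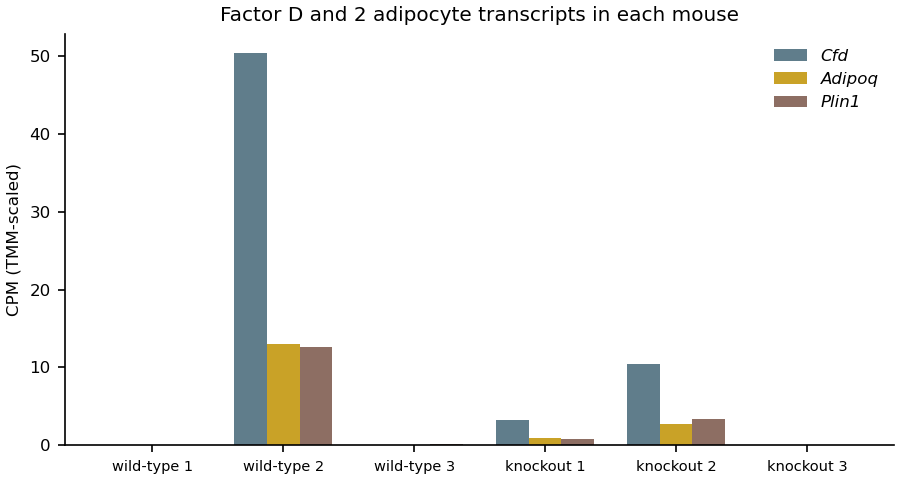
CPM of Cfd, Adipoq and Plin1 (bars, vertical axis from 0) in each of the 6 livers. Each transcript is highest in wild-type 2, at 50.4, 13 and 12.6 CPM, and next highest in knockout 2, and all are near or at 0 in wild-type 1, wild-type 3 and knockout 3.

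The collectins Colec10 and Colec11, lectin pathway recognition proteins, overlapped between genotypes. Colec10 was at 26.9, 25.5 and 12.7 CPM in wild-type and 26.5, 23.7 and 31.4 CPM in knockout livers (0.33 ± 0.28), where wild-type 3 alone was low. Colec11 was at 32.4 to 41.4 CPM in wild-type livers and 38.6 to 46 CPM in knockout livers (0.15 ± 0.14).

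The membrane regulators protect host cells from C3 convertases. Cr1l, which encodes the rodent regulator Crry, was at 54.2, 53.5 and 51.2 CPM in wild-type and 51.2, 54.2 and 57.2 CPM in knockout livers, nearly level over all mice (0.03 ± 0.11, edgeR adjusted p = 0.934). Cd55, the decay-accelerating factor, was at 26.2, 17.2 and 13.1 CPM in wild-type and 17.3, 16.4 and 12.6 CPM in knockout livers (−0.29 ± 0.26; 0.03 without wild-type 1). Cd46, known in mice mainly from testis, had 12 to 19 counts per library, and no difference was detectable at this depth (−0.15 ± 0.41). It shares 14.2% of its exon bases with A330023F24Rik on the opposite strand.

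Counted over all 33 genes, edgeR called 0 at an adjusted p of 0.05, where it called 0.0141% of all genes tested (2 of 14145). At an unadjusted p under 0.05, 7 of the 33 were lower in the knockout (C1qa, C1qb, C1qc, C3ar1, C5ar1, Cfp and Clu), or 21.2%, beside 7.59% of all genes. In the other direction it was 0 of 33 beside 5.22% of all genes. DESeq2 called 3 lower (C1qc, C5ar1 and Cfp), or 9.09%, beside 1.59% of all genes, and 0 higher beside 0.912%. That count depends on DESeq2's settings: over 8 combinations of gene filter, alpha and independent filtering it ran from 1 (Cfp) to 3 members and from 186 to 340 genes in all, and the combination used here gave the most. Limma-voom called 0 members after adjustment, beside 0% of all genes. It put 7 members under an unadjusted p of 0.05, where its share of all genes was not counted. The genotypes did not overlap for 3 members lower in the knockout (C5ar1, Cfp and Clu), or 9.09% beside 9.42% of all genes, and for 2 higher (Masp1 and C4bp), or 6.06% beside 8.81%. By that measure the members were near the background. A lower mean was seen for 17 of 33 members, or 51.5%, and for 51.1% of all genes. Without wild-type 2 edgeR called 6 members lower (C1qa, C1qb, C1qc, C3ar1, C5ar1 and Cfp), or 18.2%, beside 0.97% of all genes, and 0 higher beside 0.0615%. Wild-type 2 was the lowest wild-type mouse for all 6, so leaving it out necessarily widened their differences. As it was singled out after its values were seen, these calls are no separate support. Leaving out any other single library gave 0 members in edgeR.

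Another 26 complement genes were listed as the rest of the pathway, and 20 could be tested. Of these 13 were lower and 7 higher on average (median −0.09). At an unadjusted edgeR p under 0.05 there were 6 of 20 lower, beside 7.59% of all genes, and 1 of 20 higher, beside 5.22%. After adjustment edgeR called 0 of 20, beside 0.0141% of all genes, and DESeq2 called 4 of 20 lower (Cd59a, Cd59b, Itgb2 and Vsig4), beside 1.59%. Vsig4, the Kupffer cell receptor for C3b, was at 74.7, 30.7 and 46.4 CPM in wild-type and 19.8, 22.8 and 22.5 CPM in knockout livers, without overlap (−1.22 ± 0.30, edgeR adjusted p = 0.217; DESeq2 adjusted p = 0.0092). Itgb2, the common chain of complement receptors 3 and 4, was at 30.4, 12.3 and 25.5 CPM in wild-type and 9.35, 10.4 and 4.93 CPM in knockout livers (−1.46 ± 0.39, edgeR adjusted p = 0.229; DESeq2 adjusted p = 0.012). Both were higher in wild-type 1 and 3 than in wild-type 2. Without wild-type 2 the log2 fold change was −1.47 for Vsig4 (edgeR adjusted p = 0.0349) and −1.75 for Itgb2 (edgeR adjusted p = 0.0496), so that both passed 0.05. Itgax, the partner of Itgb2 in complement receptor 4, was at 7.6, 4.43 and 9.21 CPM in wild-type and 3.45, 3.85 and 1.99 CPM in knockout livers, without overlap (−1.19 ± 0.35, edgeR adjusted p = 0.241; DESeq2 adjusted p = 0.062). Itgam, the partner in complement receptor 3, was at 1.04 to 2.65 CPM in wild-type livers and 0.7 to 1.33 CPM in knockout livers (−0.93 ± 0.44). Vsig4 is also in the Kupffer cell list, and Itgam and Itgax are in the monocyte list.

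Cd59a, which blocks the last step of the attack complex on host cells, had the smallest p of these 20 genes. Cd59a was at 31, 62.8 and 48.1 CPM in wild-type and 19, 21.1 and 18.8 CPM in knockout livers, without overlap, and here wild-type 2 was the highest mouse (−1.27 ± 0.24, edgeR adjusted p = 0.217; DESeq2 adjusted p = 0.000802). The gene lies 1.19 Mb from Cd44 on chromosome 2, so that a difference inherited with the targeted allele and a response to loss of CD44 cannot be told apart. Its close copy Cd59b, 1.17 Mb from Cd44, can share its reads. C1s1, the partner of C1ra, gave a log2 fold change of −0.02 ± 0.15.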

How the data were processed

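The libraries are poly(A) selected and randomly primed, and the labels' protocols mention no strand-marking step. The authors deposited raw read counts per Ensembl gene, 1 column per mouse. Per the submitters' processing notes, the tools were featureCounts 1.5.0-p3, StringTie 1.3.3b and HISAT2 2.0.5, with the build GRCm38.p6. How strand, shared exons and multi-mapping reads were handled is not stated. The 150 rows with no gene name (0.273% to 0.509% of a library) were left out of library sizes and tests. Symbols, positions and exon lengths came from GENCODE of the same build, and promoter windows from RefSeq.

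Genotype was tested in edgeR 4.0.16 (R 4.3.3) with filterByExpr, TMM scaling and the robust quasi-likelihood F test, adjusted over 14145 genes, at 0.05. The quasi-likelihood fit was first run in the package's older form, which called 1 gene. It was changed to the newer form, which calls 2, after those calls were seen and several settings compared, so as to follow an earlier treatment of these data; 0 members were called either way. DESeq2 1.42.0 and limma-voom 3.58.1 were alternatives. The code was tested on simulated data. Standard errors were taken from the fold change and its F statistic. Values are CPM or RPKM per mouse, and the labels number separate mice as replicates. At a count of 0, the limit of 3 counts is 0.15 to 0.205 CPM. With 3 mice against 3, an exact permutation test of 1 value (two-sided) cannot go below 0.1, so p-values come from these models.

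The text names Cd44, the 33 members, fixed genes of the rest of the pathway with the 4 of smallest p, and 5 markers; 1 fixed gene is not reported here. Cd59b, Adipoq, Plin1, Fabp4, Cidec, Spp1, S100a4, C4a and the overlapping gene models were added after their values were seen. The members, lists and motifs were chosen with earlier results of these data known.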

Additional observations from a re-analysis of the deposited data

How the results depend on the processing

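The number of genes called over all genes was 2 in edgeR, 1 with the older quasi-likelihood fit, 6 with no low-count filter and 0 in limma-voom. DESeq2 called 340 with filtered genes, alpha 0.05 and independent filtering, and 322, 330 and 322 in the other combinations on filtered genes. On all genes with a count it called 300 and 283 with independent filtering and 186 without it, at either alpha. The complement members it called were 3, or 1 on all genes without independent filtering. The older fit and the DESeq2 combinations were chosen after seeing the data. Leaving out single libraries gave 0 to 151 genes, 0 to 6 members called and 4 to 8 members at an unadjusted p under 0.05 (7 with all mice); the 151 and the 6 were both without wild-type 2, and the 4 were without wild-type 1, knockout 1 or knockout 3. Mouse number as a replicate block gave 1 gene over all genes, 0 members, and 6 members at an unadjusted p under 0.05. In these alternative settings the share of all genes at that unadjusted p was not counted, so the member counts at it have no background. Deviations of same-numbered mice correlated at −0.0164, −0.0175 and −0.01, and those of differently numbered mice at −0.0649 to 0.0789. The labels state no pairing, and with so few mice these values cannot show whether any were handled in pairs. Over libraries left out, the median of the C1q and receptor genes ran from −1.36 to −0.84 and that of the hepatocyte-made genes from 0.06 to 0.25.

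The sign turned for Fcna (0.04 in limma-voom, 0.05 with the block), Mbl1 (0.00 with RLE scaling and in DESeq2) and Cfd (2.24 in limma-voom, 0.01 with the block). Over libraries left out, the log2 fold change ran from −0.38 to 0.54 for Fcna, −0.09 to 0.05 for C1ra, −0.16 to 0.01 for C3, −0.25 to 0.45 for C8a and −0.14 to 0.08 for Mbl1. It ran from −0.04 to 0.23 for Mbl2, −3.34 to 9.37 for Cfd, −0.50 to 0.03 for Cd55 and −0.32 to 0.09 for Cd46. The causes were not tested. Depth limits Cd46, with 12 to 19 counts per library.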
